A study of Danio rerio with 6 samples.

Results

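The genes described here encode the Hsp90, Hsp70, Smyd1 and Unc45b chaperones, the folding machinery of muscle myosin. They were chosen by gene ID for the SMYD1 copies (ENSDARG00000009280 and ENSDARG00000091253) and the HSPA8 copies (ENSDARG00000037403 and ENSDARG00000068992), and by name for hsp90aa1.1, hsp90aa1.2, hsp90ab1, hsph1 and unc45b. Of these 9 entries, 8 were found among the 24789 genes of the tables. No gene ID carries the name hsp90aa1.2 in the naming table used here. A further gene, ENSDARG00000024746, carries only the human name HSP90AA1 and is given beside the others without being counted among them.

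Messenger RNA came from trunks of zebrafish (Danio rerio) embryos at 24 to 26 h after fertilization, dissected free of head and yolk, in 3 control and 3 loss of function libraries. Control embryos were qkia+/+ or qkia+/- and carried a control morpholino, and loss of function embryos were qkia-/- and carried a qkic morpholino (0.6 pmol injected at the one cell stage, per the labels). All came from crosses of qkia+/- fish and were told apart by their appearance. Quaking genes encode RNA-binding proteins that act on the splicing and stability of transcripts. Mutation and morpholino changed together, so their parts cannot be told apart, and a morpholino is a knockdown by an antisense oligonucleotide rather than a mutation. Some control embryos may have carried the qkia mutation on 1 copy. The sources do not say how many embryos made up a library.

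Myosin heavy chains do not fold unaided. Unc45b binds the myosin motor domain and recruits Hsp90, Hsp70 delivers unfolded clients to Hsp90, and Smyd1, a muscle protein with SET and MYND domains, is needed with them for thick filament assembly. In zebrafish embryos, mutants of hsp90aa1.1, unc45b or smyd1b lack organised thick filaments in skeletal muscle. Hsp90ab1 and Hspa8 are the constitutive cytosolic chaperones of most cells, and Hsph1 belongs to the Hsp110 proteins, which release ADP from Hsp70.

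The gene tables hold 38804265 to 44799398 reads per library after conversion to whole reads, and the 8 genes took 0.943% to 1.05% of them in controls and 0.954% to 0.966% in loss of function. The values below are deposited read counts divided by a size factor for each library, here called normalized reads. In the check of the targeted gene, qkia had 61.7, 81.9 and 58.9 normalized reads in control replicates 1, 2 and 3 and 5.98, 6.93 and 3.34 in loss of function. Of the genes named only QKI, ENSDARG00000010018 fell from 637 ± 41.1 to 331 ± 21.4 (SD, n = 3; log2 change -0.94, limma adjusted p = 1.42e-07), and ENSDARG00000002026 had 38.4 ± 3.52 and 41.9 ± 6.81 (0.12, 0.684) with overlapping groups. The naming table does not say whether either is qkic, so the morpholino's target was not checked. Genes that mark skeletal muscle were abundant, with summed values of 1809146 to 2137575 in controls and 2121332 to 2209242 in loss of function. Of the 10 heart muscle genes found, myl7 and nppa were close to 0, with control means of 0 and 2.22 and loss of function means of 0.995 and 1.41. Control and loss of function means were higher for myl4 (375 and 431), HAND2 (130 and 106) and MYH6 ENSDARG00000079564 (22.3 and 68.2). The highest of the remaining heart genes was NKX2-5, with means of 11.1 and 11.5.

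Of the 8 genes, 4 rose, 3 fell and 1 did not pass the test in loss of function trunks (limma, adjusted p under 0.05). Among all 18917 genes tested, 41.9% passed, with 21.9% higher and 20.0% lower, so a passing gene is common in this comparison. With the deposited scaling, the control and loss of function values did not overlap for any of the 8, against 52.1% of all genes without overlap. As shares of all reads, the groups overlapped for unc45b, the SMYD1 copy ENSDARG00000091253 and the HSPA8 copy ENSDARG00000068992. The part of all genes without overlap was not computed for such shares. The median log2 change was 0.18 over the 8 genes and 0.00 over all genes tested. A change of at least 2-fold that also passed the test was found for 1 of the 8, against 2.93% of all genes. Because whole trunks were sequenced, fewer cells of a type and less RNA per cell cannot be told apart in any value below.

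**Figure D1:**
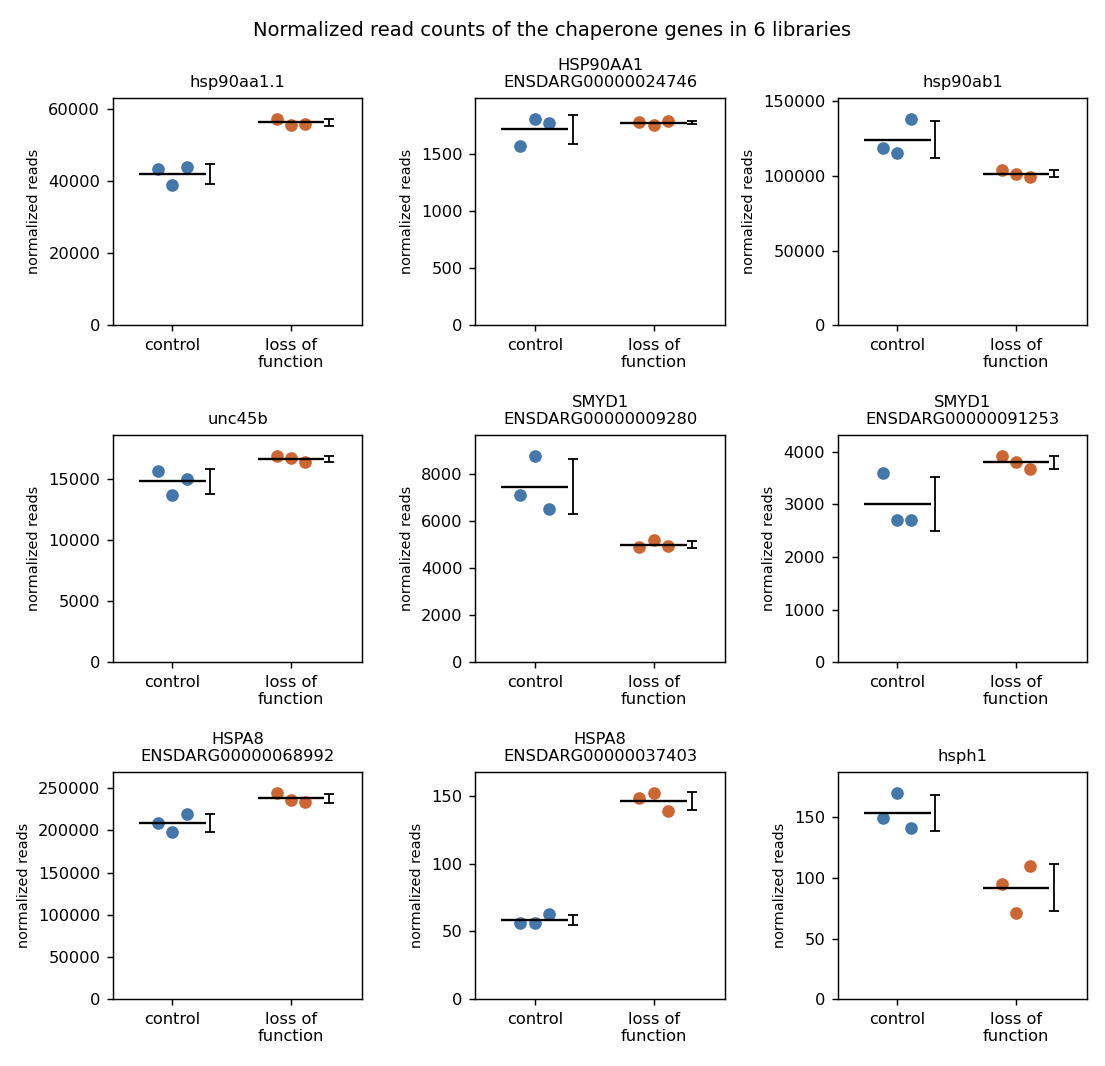
Normalized reads (y axis, linear from 0) of the 8 chaperone genes and of HSP90AA1 (ENSDARG00000024746) in 3 control and 3 loss of function libraries. Points are libraries, in replicate order from left to right, horizontal lines are means and bars beside them are the SD. The groups are separate for every gene but HSP90AA1. The SD is larger in loss of function for hsph1 and the HSPA8 copy ENSDARG00000037403. The coefficient of variation (SD relative to the mean, not drawn) is larger in controls for 7 of the 8.

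The cytosolic Hsp90 genes moved in opposite directions. The muscle gene hsp90aa1.1 (ENSDARG00000010478) had 43243, 38790 and 43921 normalized reads in control replicates 1, 2 and 3, and 57252, 55510 and 55871 in loss of function replicates 1, 2 and 3. Every loss of function library lay above every control. The mean rose 1.34-fold, from 41985 ± 2787 to 56211 ± 920 (SD, n = 3 in each group). Its log2 change was 0.42 with an SE of 0.06 (limma adjusted p = 3.45e-05). Unless another setting is named, changes on the log2 scale refer to the normalized value plus 1. Those from edgeR and DESeq2 come from whole reads.

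The constitutive gene hsp90ab1 (ENSDARG00000029150) had 119047, 115334 and 138443 normalized reads in the controls, against 104036, 101088 and 99451 in loss of function. All loss of function libraries were below the controls, among which replicate 3 was the highest. The mean fell from 124275 ± 12410 to 101525 ± 2324 (SD, n = 3), and the log2 change was -0.29 ± 0.07 (SE, limma adjusted p = 0.00526). After quantile normalization it was -0.49 (limma adjusted p = 8.67e-06).

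The gene named HSP90AA1 (ENSDARG00000024746) had 1571, 1811 and 1768 normalized reads in the controls, against 1782, 1759 and 1787 in loss of function, and its groups overlapped. Its log2 change of 0.05 (95% interval -0.07 to 0.18) missed the threshold (limma adjusted p = 0.508), and it was -0.01 without control replicate 1 and 0.09 without control replicate 2. In the RefSeq genes of assembly GRCz12tu, hsp90aa1.1 lies directly beside hsp90aa1.2. The sources do not say how reads shared by such close copies were counted, so the values of single copies are uncertain.

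The ratio of hsp90aa1.1 to hsp90ab1 does not depend on the scaling of a library. It was 0.363, 0.336 and 0.317 in controls, compared with 0.550, 0.549 and 0.562 in loss of function, with no overlap. Its log2 value changed by 0.71, from -1.56 ± 0.10 to -0.85 ± 0.02 (SD, n = 3; 2-sided exact permutation test, p = 0.1, the smallest that 3 against 3 libraries allow, adjusted p = 0.114 over 8 ratios). Over the 3 cytosolic Hsp90 genes together, hsp90aa1.1 made up 25.0% ± 1.28 of the normalized reads in controls and 35.2% ± 0.279 in loss of function, and hsp90ab1 73.9% ± 1.27 and 63.6% ± 0.299. These shares are of reads and are not corrected for transcript length. The sum of the 3 genes was 167976 ± 14542 in controls and 159512 ± 3144 (SD, n = 3) in loss of function, and its groups overlapped (log2 change -0.07, exact permutation p = 0.6). The log2 change of this sum was -0.00 without control replicate 3 and -0.12 without control replicate 2. The log2 change of the sum was not recomputed scaled to total reads or to skeletal muscle genes. Scaled to total reads, hsp90ab1 had a log2 change of -0.43 and hsp90aa1.1 of 0.28. With TMM factors, another scaling, the sum had a log2 change of -0.08 (exact permutation p = 0.5). Whether the sums overlap scaled to total reads or to skeletal muscle genes was not tested.

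The myosin chaperone gene unc45b (ENSDARG00000008433) showed a small rise. It had 15719, 13745 and 15036 normalized reads in the controls, against 16944, 16722 and 16429 in loss of function, where every library was above the highest control. The mean went from 14834 ± 1002 to 16698 ± 258 (SD, n = 3), a 1.13-fold difference, and the log2 change was 0.17 (95% interval 0.06 to 0.29, limma adjusted p = 0.0168). This call was lost without control replicate 2 (log2 change 0.12, limma adjusted p = 0.0749), without loss of function replicate 1 (0.16, 0.0837) or 2 (0.17, 0.0699), without the intensity trend (0.0978) and after quantile normalization (log2 change 0.06, 0.406). As a share of all reads unc45b took 0.0405%, 0.0343% and 0.0369% in controls, compared with 0.0379%, 0.0382% and 0.0380% in loss of function, and these ranges overlapped.

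The deposited size factors left loss of function libraries with larger summed values, 43261678 to 44672244 against 38854614 to 40728502 in controls. Scaling to total reads shifted the median log2 change of all genes to -0.14, and it left 25.6% of the called genes higher, against 52.2% with the deposited scaling. In that scaling the log2 change was 0.28 for hsp90aa1.1 (limma adjusted p = 7.10e-04), -0.43 for hsp90ab1 and 0.03 for unc45b (0.639). Dividing instead by the summed skeletal muscle genes gave 0.31 for hsp90aa1.1 (limma adjusted p = 0.0360), -0.40 for hsp90ab1 and 0.06 for unc45b (0.744), with a median of -0.12 over all genes. In both scalings 2 of the 8 genes rather than 4 were called higher, and 3 were lower as before. Of all 18917 genes, 2147 were higher and 6225 lower scaled to total reads, and 1346 and 4404 scaled to skeletal muscle genes. These scalings were added after the data had been seen.

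The SMYD1 copies also moved in opposite directions. The more abundantly read copy, ENSDARG00000009280, had 7116, 8789 and 6531 normalized reads in the controls, against 4911, 5191 and 4932 in loss of function. All controls were above all loss of function libraries, and control replicate 2 was the highest. The mean was 1.49-fold lower and fell from 7479 ± 1172 to 5012 ± 156 (SD, n = 3), and the log2 change was -0.57 ± 0.08 (SE, limma adjusted p = 2.27e-05).

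For the other copy, ENSDARG00000091253, the values were 3596, 2709 and 2705 in controls, compared with 3920, 3805 and 3667 in loss of function. Control replicate 1 was close to the lowest loss of function library, and the other controls were lower. The mean rose 1.26-fold, from 3003 ± 513 to 3797 ± 127 (SD, n = 3), and the log2 change was 0.35 ± 0.08 (SE, limma adjusted p = 0.00245). It did not pass with DESeq2 on whole reads (adjusted p = 0.0604), without the intensity trend (limma adjusted p = 0.0755), scaled to total reads (log2 change 0.21, 0.0821) or scaled to skeletal muscle genes (0.23, 0.0803). Control replicate 1 gave this copy 0.00925% of all reads, more than any loss of function library (0.00877%, 0.00868% and 0.00848%). Control replicates 2 and 3 gave it less, 0.00676% and 0.00664%, so the ranges of these shares overlapped. RefSeq lists zebrafish smyd1a and smyd1b, and the naming table gives SMYD1 for both IDs without saying which is which.

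Within each library, the ratio of ENSDARG00000009280 to ENSDARG00000091253 was 1.98, 3.24 and 2.41 in controls, compared with 1.25, 1.36 and 1.34 in loss of function. The log2 ratio differed by -0.92, from 1.32 ± 0.36 to 0.40 ± 0.07 (SD, n = 3; exact permutation p = 0.1, the smallest possible, adjusted p = 0.114 over 8 ratios). ENSDARG00000009280 accordingly made up 71.2% ± 5.02 of the SMYD1 reads in controls and 56.9% ± 1.12 in loss of function. The sum of the copies was 10712, 11498 and 9235 in controls, compared with 8831, 8997 and 8599 in loss of function (log2 change -0.25, exact permutation p = 0.1). The sum does not depend on how reads were divided between the copies, and its groups did not overlap.

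The ratio of unc45b to the SMYD1 copy ENSDARG00000009280 was 2.21, 1.56 and 2.30 in controls, compared with 3.45, 3.22 and 3.33 in loss of function, a log2 difference of 0.74 (exact permutation p = 0.1). Relative to the copy ENSDARG00000091253 it was 4.37, 5.07 and 5.56 in controls, compared with 4.32, 4.39 and 4.48 in loss of function, and these groups overlapped (log2 difference -0.18, exact permutation p = 0.3). That difference was -0.27 without control replicate 1 and -0.10 without control replicate 3. Relative to hsp90aa1.1 it was 0.364, 0.354 and 0.342 in controls, compared with 0.296, 0.301 and 0.294 in loss of function, lower in every loss of function library (log2 difference -0.25, exact permutation p = 0.1).

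**Figure D2:**
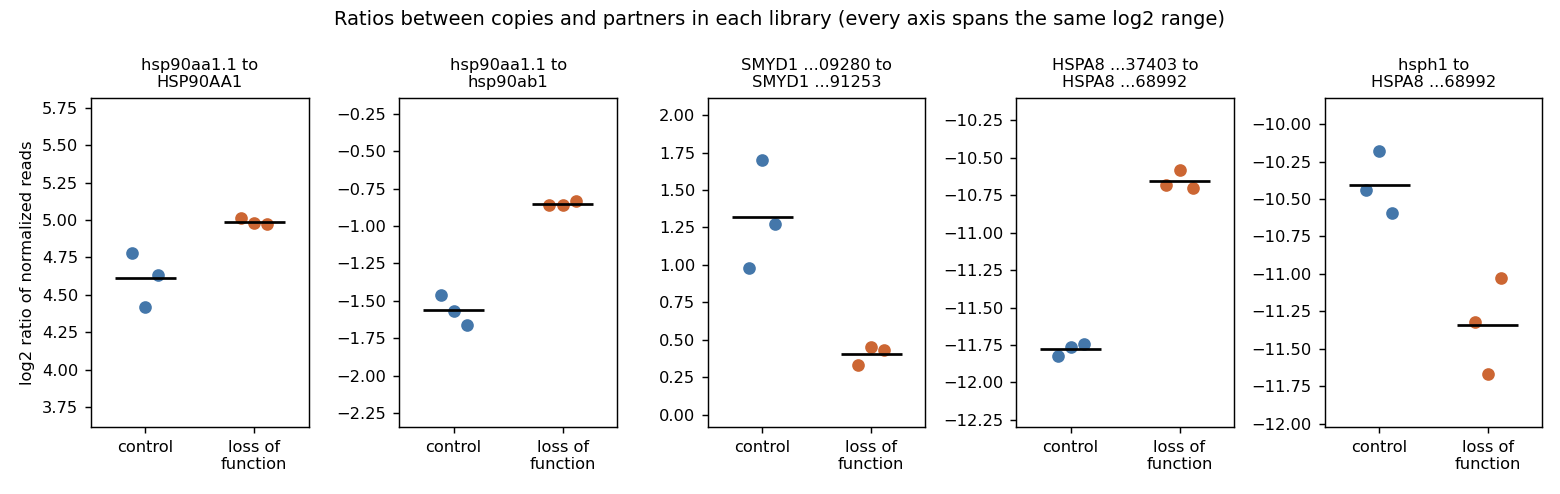
Log2 ratio of normalized reads between 2 genes in each library (y axis, the same span in every panel), for 3 control and 3 loss of function libraries; points are libraries and lines are means. The groups are separate in all 5 panels, and the log2 ratio of hsp90aa1.1 to hsp90ab1 lies between -1.66 and -1.46 in controls and between -0.86 and -0.83 in loss of function.

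Of the HSPA8 copies, the one with few reads rose and the abundant one did not pass the test. ENSDARG00000037403 had 56.4, 56.2 and 62.9 normalized reads in the controls, against 148, 152 and 139 in loss of function. Recovered reads numbered 64, 57 and 62 against 148, 154 and 125, so these values rest on far fewer reads than those of the other copy. The mean rose 2.5-fold, from 58.5 ± 3.81 to 146 ± 6.62 (SD, n = 3), and the log2 change was 1.31 ± 0.14 (SE, limma adjusted p = 1.76e-06).

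The HSPA8 copy ENSDARG00000068992 carried almost all HSPA8 reads, and its values were 208241, 198134 and 219031 in controls, compared with 244246, 235543 and 233544 in loss of function. The groups did not overlap, and the log2 change of 0.19 (unadjusted 95% interval 0.03 to 0.35) missed the threshold (limma adjusted p = 0.0551). It passed with edgeR (log2 change 0.18, adjusted p = 0.0284) and DESeq2 (0.18, adjusted p = 0.00143) on whole reads, and without control replicate 1 (0.19, limma adjusted p = 0.0439) or control replicate 3 (0.23, limma adjusted p = 0.00194). As a share of all reads it took 0.494% to 0.538% in controls and 0.537% to 0.547% in loss of function, with overlapping ranges, and its log2 change scaled to total reads was 0.05 (limma adjusted p = 0.483).

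The ratio of ENSDARG00000037403 to ENSDARG00000068992 was 2.17-fold higher in loss of function (log2 value from -11.77 ± 0.04 to -10.66 ± 0.06, SD, n = 3; exact permutation p = 0.1), and the groups did not overlap. Whether reads of the abundant copy were counted for the other was not tested.

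The Hsp110 gene hsph1 (ENSDARG00000019874) fell. It had 149, 170 and 141 normalized reads in the controls, against 94.7, 71.3 and 110 in loss of function, with all loss of function libraries below the controls. Here the coefficient of variation was larger in loss of function than in controls, at 21.4% and 9.66%, unlike in the other 7 genes. The mean was 1.66-fold lower and fell from 153 ± 14.8 to 92.1 ± 19.7 (SD, n = 3), and the log2 change was -0.75 ± 0.16 (SE, limma adjusted p = 0.00102). The log2 ratio of hsph1 to the abundant HSPA8 copy was -10.40 ± 0.21 in controls against -11.34 ± 0.32 in loss of function (SD, n = 3; exact permutation p = 0.1), without overlap.

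Scatter between libraries was lower in loss of function for the chaperone genes as a group. The median coefficient of variation over the 8 genes was 8.21% in controls and 2.75% in loss of function, and over all genes tested it was 8.43% and 5.48%. Controls had the wider scatter for 67.4% of all genes.

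**Figure D3:**
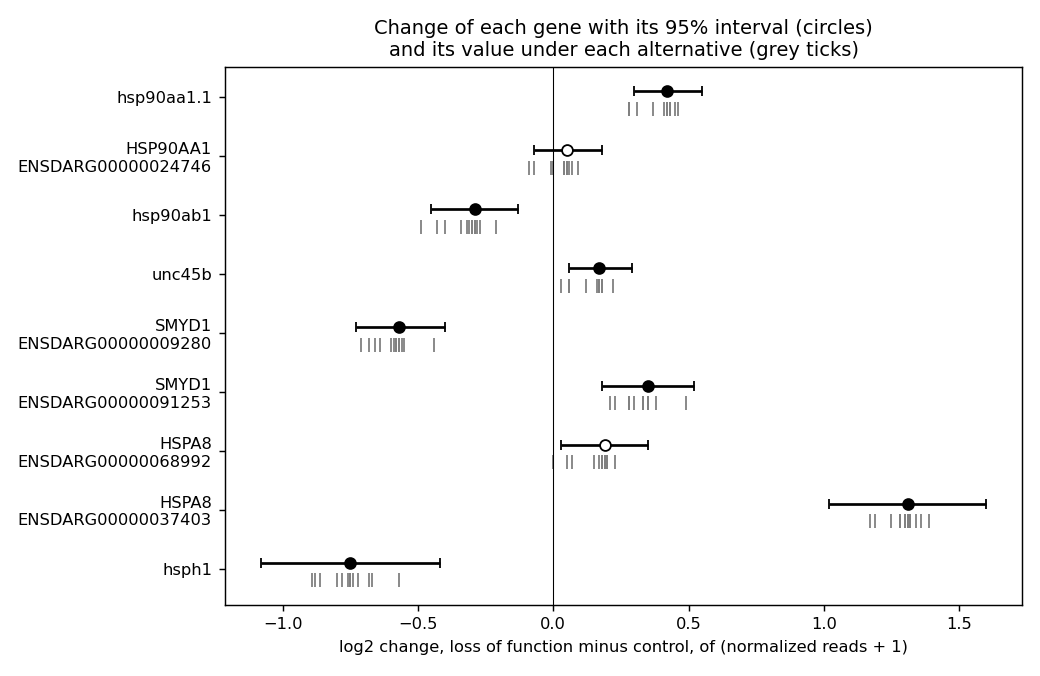
Log2 change of normalized reads plus 1, loss of function minus control (x axis), for the 8 chaperone genes and HSP90AA1 (ENSDARG00000024746). Circles with bars are the estimate and its 95% interval from 6 libraries, filled where the limma adjusted p is under 0.05, and grey ticks are the values under each of 18 alternatives; the ticks of hsp90aa1.1 run from 0.28 to 0.46 and those of unc45b from 0.03 to 0.22.

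Related genes, among them cochaperones, partners, further members of the same families and heat shock factors, were examined in 6 lists. The lists had 58 genes found and 56 tested, of which 27 rose and 4 fell (median log2 change 0.18). Over all 18917 genes tested, 21.9% were higher and 20.0% lower, the background in the deposited scaling for this count and for each list below. Scaled to total reads, that background was 2147 genes higher and 6225 lower, and scaled to skeletal muscle genes 1346 higher and 4404 lower. Scaled to total reads, where the median of all genes was -0.14, 15 were higher and 8 lower with a median of 0.04. Scaled to skeletal muscle genes, 9 were higher and 4 lower. The count of genes called higher thus depends on the scaling.

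Of 12 Hsp90 cochaperone genes tested, 9 rose and none fell, and 3 did not pass (median log2 change 0.29, against 0.00 for all genes; 5 higher and 0 lower when scaled to total reads). STIP1, whose product bridges Hsp70 and Hsp90, rose from 6684 ± 336 to 8743 ± 301 normalized reads (SD, n = 3; log2 change 0.39, limma adjusted p = 1.60e-05). The immunophilin gene FKBP4 rose from 6308 ± 259 to 7977 ± 194 (0.34, limma adjusted p = 3.59e-05) and CACYBP from 1015 ± 64.0 to 1345 ± 33.2 (0.41, limma adjusted p = 4.90e-05). Scaled to skeletal muscle genes, 3 of the list were higher, and the FKBP4 call was lost (0.22, limma adjusted p = 0.101). AHSA1, which stimulates the Hsp90 ATPase, had a log2 change of 0.20, and the p23 genes named PTGES3 had 0.20 (ENSDARG00000037284) and 0.59 (ENSDARG00000089626). FKBP5 (0.32), cdc37l1 (0.08) and CHORDC1 (ENSDARG00000003973, -0.02) did not pass the test. The other gene named CHORDC1, ENSDARG00000017067, had more reads and rose from 1325 ± 56.4 to 1688 ± 21.1 (SD, n = 3; 0.35, limma adjusted p = 7.56e-05).

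Of 16 cochaperones and exchange factors of Hsp70, 6 rose and 1 fell (median log2 change 0.10, and -0.04 scaled to total reads). The exchange factor genes GRPEL1 and GRPEL2 of the mitochondrial Hsp70 rose by log2 changes of 0.46 and 0.38. HSPA4 (ENSDARG00000018989), an Hsp110 gene like hsph1, rose from 6390 ± 434 to 8058 ± 86.3 (SD, n = 3; log2 change 0.34, limma adjusted p = 7.84e-05), and so did the second gene of that name (ENSDARG00000004754, 0.19), ST13 (0.30) and HYOU1 (0.31), the Hsp110 gene of the endoplasmic reticulum. Scaled to skeletal muscle genes, 2 of the list were higher and 1 lower, and the call of HSPA4 ENSDARG00000018989 was lost (0.22, limma adjusted p = 0.106). HSPA4L fell with hsph1, from 312 ± 45.1 to 244 ± 33.3 (log2 change -0.35, limma adjusted p = 0.0237), with overlapping groups. Its call was lost without control replicate 2 (-0.26, limma adjusted p = 0.104) and without loss of function replicate 1 (-0.36, 0.0630) or 2 (-0.25, 0.139). The BAG genes, among them BAG3 (-0.02), and the ubiquitin ligase gene STUB1 (0.03) did not pass the test.

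Of 12 further Hsp90 and Hsp70 genes, 6 rose and 1 fell (median log2 change 0.28), against 4 higher and 1 lower scaled to total reads and 3 and 1 scaled to skeletal muscle genes. The Hsp90 genes of other compartments rose, HSP90B1 of the endoplasmic reticulum from a mean of 7131 to 9315 normalized reads (n = 3; log2 change 0.39, SE 0.05, limma adjusted p = 6.77e-06) and TRAP1 of mitochondria by a log2 change of 0.37. HSPA12B (0.46), HSPA14 (0.41), HSPA13 (0.26) and the mitochondrial HSPA9 (0.18) rose as well. The gene that fell was hspa1b, from 214 ± 31.6 to 156 ± 8.60 (log2 change -0.45, limma adjusted p = 0.00613). The genes hsp70l (0.30, limma adjusted p = 0.129), hsp70.1 (0.39, 0.473) and hsp70.3 (0.13, 0.299) did not pass the test.

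Of 4 genes tested that encode heat shock factors or their binding proteins, 1 rose and none fell, whereas none was higher and 2 were lower scaled to total reads. The factor gene hsf1 had a log2 change of -0.10 (limma adjusted p = 0.357) and HSF2 of -0.10 (0.140), while hsbp1b, which encodes a heat shock factor binding protein, rose (0.24, limma adjusted p = 0.00310). The other binding protein gene, HSBP1 (ENSDARG00000069425), did not pass (0.02, limma adjusted p = 0.836). The hsbp1b call was lost scaled to total reads (0.10, limma adjusted p = 0.129), scaled to skeletal muscle genes (0.12, 0.406) and without the intensity trend (0.0563). HSF4 had means of 0.623 and 0.660 normalized reads and was not tested. Of 5 other genes with SET and MYND domains, SMYD2 (ENSDARG00000055151, 0.13, limma adjusted p = 0.0416) rose and smyd4 fell from 343 ± 26.7 to 240 ± 18.2 (SD, n = 3; -0.51, limma adjusted p = 3.88e-04). The SMYD2 call was lost without any of 5 libraries in turn, control replicates 1 (0.0968) and 2 (0.0659) and loss of function replicates 1 (0.187), 2 (0.0946) and 3 (0.0998), and its log2 change was -0.01 scaled to total reads.

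Among 7 genes of proteins that act with Smyd1 or Unc45b, 4 rose and 1 fell (median log2 change 0.20), while 1 was higher and 2 lower scaled to total reads (median 0.06). The ubiquitin ligase genes of the sarcomere trim55a (0.44), trim63b (0.26) and trim63a (0.21) rose. Scaled to total reads the calls of trim63b (log2 change 0.12, limma adjusted p = 0.0874) and trim63a (0.07, 0.276) were lost, as they were scaled to skeletal muscle genes (0.14, 0.334 and 0.09, 0.562). TRIM54 fell and had means of only 21.3 ± 4.75 and 11.5 ± 4 normalized reads (SD, n = 3; -0.88, limma adjusted p = 0.0446). The TRIM54 call was lost without control replicate 1 (0.111) or 2 (0.147) and without loss of function replicate 1 (0.0586) or 2 (0.202). The gene naca, whose muscle isoform is a partner of Smyd1 in mouse, rose from 73952 ± 4564 to 84810 ± 1266 (0.20, limma adjusted p = 0.0184). That call was lost without control replicate 2 (0.0746), without loss of function replicate 1 (0.0936), 2 (0.0718) or 3 (0.0742) and after quantile normalization (log2 change 0.01) or scaling to total reads (0.06). UBE4B, a relative of the worm ligase that acts on UNC-45, had a log2 change of -0.04 (limma adjusted p = 0.528).

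**Figure D4:**
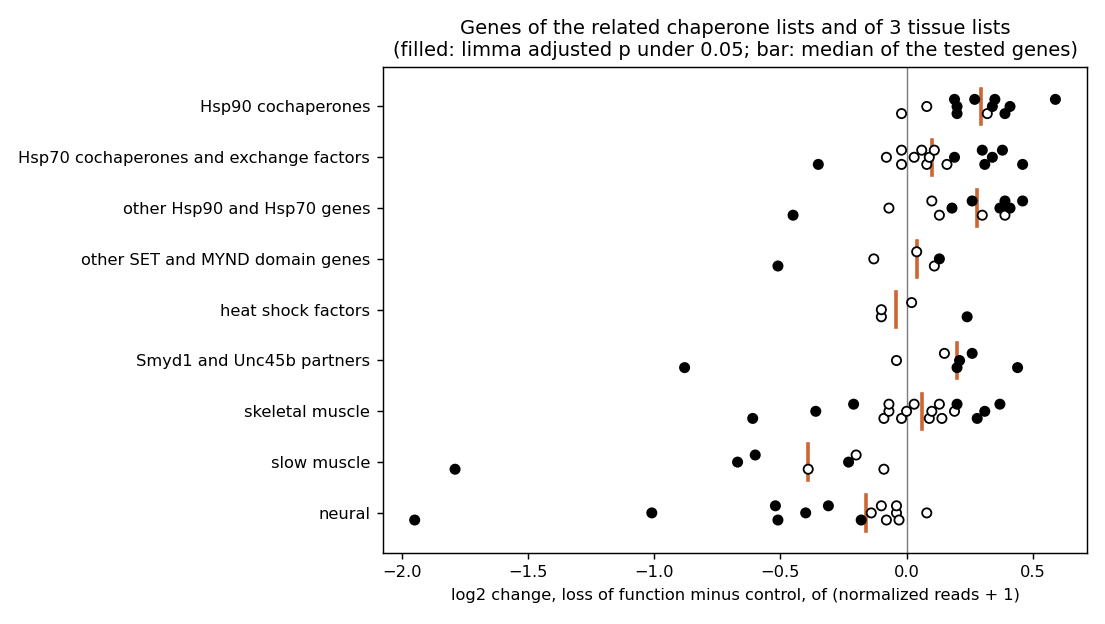
Log2 change of normalized reads plus 1, loss of function minus control (x axis), of the tested genes in 6 lists of related genes and 3 lists of tissue markers (rows). Each circle is a gene, filled where its limma adjusted p is under 0.05, and the bar is the median of the row, which is 0.29 for Hsp90 cochaperones, 0.06 for skeletal muscle (-0.08 scaled to total reads) and -0.39 for slow muscle.

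Tissue markers moved in the same libraries, in which 21.9% of all genes tested were higher and 20.0% lower. Scaled to total reads, 2147 of all 18917 genes were higher and 6225 lower. Of 18 skeletal muscle genes tested, 4 were higher and 3 lower (median log2 change 0.06), and the summed values overlapped between groups. Scaled to total reads, 1 was higher and 5 were lower (median -0.08). Of 7 slow muscle genes, 4 were lower and none higher (median -0.39; 6 lower scaled to total reads), with sums of 63204 to 66610 in controls and 55564 to 57041 in loss of function. Of 14 neural genes, 7 were lower and none higher (median -0.16; 12 lower with a median of -0.30 scaled to total reads), with sums of 38131 to 42404 and 35374 to 36093. All 14 erythroid genes tested were higher (median 2.29), with sums of 11981 to 33867 and 98581 to 101464. Of 4 heart muscle genes tested, 1, MYH6 (ENSDARG00000079564), was higher, with means of 22.3 and 68.2 (1 other lower scaled to total reads), and the list's sums were 452 to 660 and 610 to 652. The part of these tissues in the chaperone values was not tested.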

How the data were processed

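Poly(A) RNA libraries without strand information were read in 50 bp reads, per the labels' protocols. The authors deposited 1 signal value per gene and library, which is a count of reads over that library's size factor. In each of the 6 libraries 100% of the values were whole multiples of 1 read (tolerance 0.001). Per the submitters' processing notes, which give no roles, the build was Zv9 and the tools were DESeq 1.8.3, HTSeq 0.5.3, SAMtools, STAR 2.4.0j and Bowtie 0.12.9. The mean number of reads in the labels is below the totals of the tables, and the sources do not explain the difference. Symbols came from a table that names 18555 of 24789 IDs (74.9%). Gene coordinates served only to find the neighbours of genes in RefSeq, and no sequence or exon value was used here.

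Genes that reached 10 normalized reads in 3 or more libraries were tested with limma 3.58.1 (R 4.3.3; eBayes with trend) on log2(value + 1), 2-sided, with Benjamini-Hochberg adjustment over all 18917 genes and a threshold of 0.05. Groups were taken from the sample titles, and nothing given here ties a library to a single clutch, so p-values cover only the scatter among these libraries, which may be technical. Ratios and sums were compared by exact permutation tests (SciPy 1.17.1). The planned ratio to hsp90aa1.2 used the gene named HSP90AA1. Alternatives were edgeR 4.0.16 and DESeq2 1.42.0 on whole reads, other pseudocounts, filters and scalings, a replicate block and leaving out each library.

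The members and lists were chosen with earlier results of these data known. Named genes were all members, in each list up to 3 with the smallest adjusted p and every one where 5 or fewer moved in a direction, and the genes most like 5 of the members; further list genes were chosen after their values were seen. On simulated data with 18945 genes, limma recovered 49 of 67 changes of 1.5-fold, 56 of 67 of 2-fold and 64 of 66 of 4-fold. Of its 182 calls there, 13 were false. In the real libraries 7935 of 18917 genes were called, a far larger part. The median coefficient of variation over all genes tested was 8.43% in controls and 5.48% in loss of function. Whether the recovery and the rate of false calls are the same with so many calls and such scatter was not tested.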

Additional observations from a re-analysis of the deposited data

How the results depend on the processing

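In each of 18 alternatives hsp90aa1.1, hsp90ab1, hsph1, the SMYD1 copy ENSDARG00000009280 and the HSPA8 copy ENSDARG00000037403 kept their direction and passed the test, whereas the SMYD1 copy ENSDARG00000091253 passed in 14, unc45b in 11 and the HSPA8 copy ENSDARG00000068992 in 4. The 8 ratios and 4 sums kept their direction in all theirs. For the sums these did not include scaling to total reads or to skeletal muscle genes. HSP90AA1 turned to a log2 change of -0.09 (total reads), -0.07 (skeletal muscle genes) and, with a library left out, ranged from -0.01 (without control replicate 1) to 0.09, and SMYD2 to -0.01 (total reads) and -0.00 (quantile normalization). Against 4143 genes higher and 3792 lower, scaling to total reads called 2147 and 6225, and scaling to skeletal muscle genes 1346 and 4404. Without the trend 3173 genes were higher and 3055 lower. Of the 8 genes, 2 instead of 4 were higher in both scalings and without the trend. Of the related genes, 27 higher and 4 lower became 15 and 8 with total reads, 9 higher with skeletal muscle genes, 2 lower without the trend, and 2 to 4 lower when a library was left out. Both scalings lower every loss of function value, and leaving out the trend changes no value. The cause of these shifts was not tested. With the replicate number as a block, 4055 genes were higher and 3759 lower. Same-numbered libraries did not deviate together (correlations -0.0750, 0.00793 and -0.0216). With 3 libraries per group, these correlations cannot decide whether the numbers pair the samples, because a weak shared batch would look the same. Low read numbers limit the HSPA8 copy ENSDARG00000037403 and hsph1.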

Other observations

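Of the 12499 genes that had a symbol and averaged 50 or more normalized reads, those nearest to a chaperone gene were ranked by the root mean square difference of their centred log2 values over the 6 libraries, as a description. The parvalbumin genes pvalb1 and pvalb4, which encode calcium buffers of fast muscle, were nearest to the SMYD1 copy ENSDARG00000009280, with differences of 0.0319 and 0.0342, followed by DIXDC1 (0.0365). Their log2 changes were -0.55, -0.57 and -0.57. PPP2R5A (0.0283), BCAP29 (0.0403) and ACER1 (0.0463) were nearest to the other SMYD1 copy, ENSDARG00000091253.

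Nearest to hsp90aa1.1 were agr1 (0.0119), spint2 (0.0126) and rhoca (0.0168), with log2 changes of 0.41, 0.42 and 0.44. OXA1L (0.0157), GDPD5 (0.0176) and DERA (0.0185) were nearest to unc45b. For hsph1 the nearest were CP (0.0564), PAX8 (0.0930) and ENOX1 (0.0973), with log2 changes of -0.64, -0.78 and -0.79.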
